A study of Mus musculus with 31 samples.

Results

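The results below describe how dexamethasone (Dex) and iBRD9 acted together on the transcripts of LPS-stimulated macrophages. The measure is an interaction on the log2 scale: the effect of iBRD9 in cells given Dex (Dex + iBRD9 + LPS over Dex + LPS) minus its effect in cells without Dex (iBRD9 + LPS over LPS). It uses 12 of the 31 RNA-seq libraries of the series, 3 in each of 4 groups: Dex + iBRD9 + LPS, Dex + LPS, iBRD9 + LPS and LPS alone. A positive value means that the combination left more transcript than the product of both single fold changes would give, and a negative value means less.

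The cells were bone marrow-derived macrophages of male C57BL/6J mice aged 6 to 12 weeks, grown with medium conditioned by L-929 cells. Dex, a synthetic glucocorticoid, was given at 1 µM, and iBRD9, an inhibitor of the bromodomain of BRD9, at 3 or 10 µM. All 4 groups had LPS, a lipid of the outer membrane of Gram-negative bacteria, at 100 ng/ml for 3 h after an overnight treatment. The labels do not say which iBRD9 library had which dose, so an interaction and a difference in dose between the iBRD9 groups cannot be told apart. Vehicle libraries, and libraries with dBRD9 (250 nM), a degrader of BRD9, with and without Dex, were also sequenced in the same experiment, with 3 libraries per group. The labels do not say whether the libraries of a group came from separate mice or cultures, so p-values measure the spread between these libraries, which may be technical.

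As background, Dex binds the glucocorticoid receptor, a transcription factor that raises anti-inflammatory genes such as Tsc22d3 and Dusp1 and lowers many genes that LPS induces through NF-kB, AP-1 and interferon signalling. LPS acts on Toll-like receptor 4, and part of its response runs through interferon-beta, which macrophages release and then sense through their own interferon receptor. BRD9 belongs to non-canonical BAF, a complex that remodels chromatin, and its bromodomain reads acetylated lysines.

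Depth was 19.3 to 29.9 M counts per library, and 12662 genes were tested. The bulk RNA of each library cannot tell fewer cells of a type from less RNA per cell. Replicate 1 of Dex + LPS stood apart from its group: over genes its deviation from the group mean had a Spearman correlation of -0.69 with exon length. Its counts differed from those of the other 2 libraries of that group with a chi-square of 42.0 and 44.8 per degree of freedom, against 2.31 between those 2. Without this library, 154 of the 156 named genes with a called interaction kept their sign and their call, and Bcl7b and Inhba did not. Values without it are given below where the interaction call of a named gene, or a list's count in 1 direction by over 1.5 times, changed. They are also given for some other results. Calls of further list members changed as well, and not all of these are given. Cyld, Mepce, Irak1, Cnr2 and Ltf, counted as called in the lists below, were not called without it, while other members gained a call. The macrophage label was checked on 21 macrophage genes, all of which were detected, with a sum of 28889 to 44367 CPM over the 12 libraries (CPM, counts per M of scaled library totals). Lineage markers of T and NK cells summed to 0.751 to 5.73 CPM, with 8 or 9 of 12 genes without a count in a group, and those of mast cells and basophils to at most 0.862 CPM.

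Across all genes, iBRD9 did less in the presence of Dex. It changed 4390 genes with Dex (34.7% of those tested, 16.7% higher and 18% lower) and 7844 genes without Dex (61.9%, 31.4% higher and 30.5% lower), by edgeR's quasi-likelihood test at a Benjamini-Hochberg adjusted p under 0.05. Dex changed 6301 genes with iBRD9 (49.8%) and 7016 genes without iBRD9 (55.4%, 27.9% higher and 27.5% lower). With scaling by library totals the higher share of these calls was 65.1% in place of 48.1% with Dex (38.2% with DESeq2 size factors), and 63.1% in place of 50.7% without Dex. The interaction itself was called for 4210 genes (33.2%), of which 2186 were higher (17.3%) and 2024 lower (16%), and the median of all genes tested was -0.0068. Without replicate 1 of Dex + LPS these counts were 2465 and 2357. With scaling by library totals they were 1934 and 2486, and with DESeq2 size factors 2103 and 2173. With a correction for exon length they were 2227 and 2654, so which direction held more genes depended on the processing. Of the higher genes, 935 had an interaction of at least 2-fold, against 219 of the lower genes.

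The usual form of the interaction was a smaller effect of the same sign. Of the 2186 genes with a higher interaction, iBRD9 had an effect of the same sign but smaller with Dex than without Dex in 1456 (66.6%), and of the 2024 with a lower interaction in 1223 (60.4%). Over all genes tested this share was 54.9%. Without replicate 1 of Dex + LPS the shares were 68.8% of the higher and 62.2% of the lower genes. For Dex, 386 of the 2186 higher genes had called effects of opposite sign with and without iBRD9 (17.7%), as did 205 of the 2024 lower genes (10.1%) and 591 of the 12662 tested (4.67%). In terms of levels, 74.7% of the higher genes had their highest mean of the 4 groups with LPS alone, and 63.2% had their lowest with iBRD9 + LPS, against 30.4% and 27.8% of all genes tested. Of the lower genes, 60.3% had their highest mean with iBRD9 + LPS and 71.8% their lowest with LPS alone, against 27.5% and 32% of all genes tested. The sign of the interaction is computed from the same 4 means, so these shares only describe the form. On a linear scale of CPM, where effects add rather than multiply, the sign was the same for 2079 of the 2186 higher genes and 2000 of the 2024 lower genes. The lowest of the 4 means was under 1 CPM for 401 of the higher genes and 101 of the lower genes, so their folds rest on few reads.

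**Figure D1:**
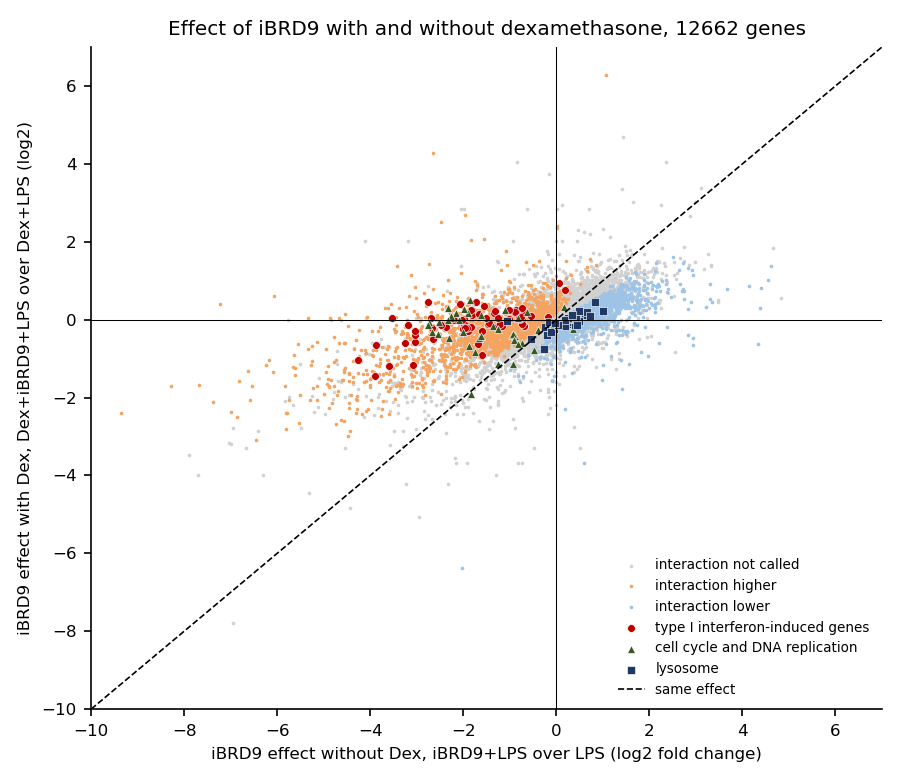
Each point is 1 of 12662 genes, with the log2 effect of iBRD9 without Dex on the horizontal axis and with Dex on the vertical axis. Orange and blue points have a called higher (2186) or lower (2024) interaction, and the dashed line marks equal effects. Type I interferon-induced genes (red circles) lie left of 0 on the horizontal axis with few exceptions, with a median of -1.71 without Dex against -0.095 with Dex.

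Type I interferon-induced genes gave the most uniform response. All 64 tested genes of this list had a called higher interaction (17.3% of all genes tested), with values from 0.25 to 3.58 and a median of 1.63. All 64 were also higher without replicate 1 of Dex + LPS, and 62 to 64 were called over the alternatives tried. With Dex, iBRD9 lowered 15 of them and raised 9 (median -0.095). Without Dex, iBRD9 lowered 62 and raised 1 (median -1.71). Seen from Dex, the median effect was 0.14 with iBRD9 and -1.48 without iBRD9. The mean with Dex + iBRD9 + LPS was above that of iBRD9 + LPS in 43 of the 64 genes, against 6527 of the 12662 genes tested. It was above the vehicle mean in 57 of the 64, against 6315 of the 12662. The difference from vehicle was not tested. This list includes the chemokine gene Cxcl10 and the GTPase genes Gbp2 and Gbp3, which other lists also hold.

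Mx1 encodes a GTPase that restricts RNA viruses. Mx1 (ENSMUSG00000000386; mm10 chr16:97447035-97462907, minus strand) had 75.7, 50.8 and 54.1 CPM with Dex + iBRD9 + LPS, 97.8, 96.5 and 91.7 CPM with Dex + LPS, 54.0, 70.1 and 52.3 CPM with iBRD9 + LPS, and 871, 804 and 928 CPM with LPS alone. All 3 LPS libraries lay above the other 9, and the libraries of the combination overlapped those of iBRD9 + LPS but lay below those of Dex + LPS. The log2 effect of iBRD9 was -0.66 (SE 0.14, adjusted p = 7.3e-04) with Dex and -3.88 (SE 0.15, adjusted p = 7.3e-16) without Dex, and the interaction was 3.22 (SE 0.20, adjusted p = 2.4e-11). Without interaction the combination would have had 6.46 CPM, close to the vehicle mean of 6.11 CPM, against the 60.2 CPM measured.

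Ifit3, Ifit3b and Ifit2 encode interferon-induced proteins with tetratricopeptide repeats, of which Ifit2 binds RNA and limits translation of viral messages. Ifit3 (ENSMUSG00000074896; mm10 chr19:34583531-34588731, plus strand) had 51.0, 35.3 and 36.6 CPM with Dex + iBRD9 + LPS, 62.2, 36.8 and 34.7 CPM with Dex + LPS, 21.2, 33.0 and 21.8 CPM with iBRD9 + LPS, and 239.6, 223 and 227 CPM with LPS alone. The combination overlapped Dex + LPS and lay above iBRD9 + LPS, and its interaction was 3.06 (SE 0.27, adjusted p = 6.2e-09). Replicate 1 of Dex + LPS was the highest of its group. Ifit3b, whose sequence is close to that of Ifit3 so that reads may be shared between them, had an interaction of 3.58 (SE 0.27, adjusted p = 7.8e-10). Ifit2 (ENSMUSG00000045932; mm10 chr19:34550694-34576419, plus strand) had 180.4, 126 and 140.2 CPM with Dex + iBRD9 + LPS, 117, 116 and 104 CPM with Dex + LPS, 186, 262 and 213 CPM with iBRD9 + LPS, and 923, 889 and 951 CPM with LPS alone. Here the combination lay above Dex + LPS in all 3 libraries, and iBRD9 had opposite effects in the 2 settings, 0.41 (SE 0.13, adjusted p = 0.015) with Dex and -2.06 (SE 0.13, adjusted p = 3.0e-12) without Dex. The interaction of Ifit2 was 2.47 (SE 0.18, adjusted p = 3.3e-10).

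Pml, the scaffold of nuclear bodies, and Trim30d, a member of the tripartite motif family, went the same way as Ifit2. Pml (ENSMUSG00000036986; mm10 chr9:58218076-58249786, minus strand) had 30.1, 28.5 and 28.8 CPM with Dex + iBRD9 + LPS, 22.1, 20.4 and 21.2 CPM with Dex + LPS, 19.7, 21.2 and 22.3 CPM with iBRD9 + LPS, and 69.7, 65.2 and 75.3 CPM with LPS alone, so that the combination was higher than Dex + LPS and iBRD9 + LPS in every library but lower than LPS alone. Its interaction was 2.19 (SE 0.11, adjusted p = 1.1e-12), with iBRD9 effects of 0.45 with Dex and -1.74 without Dex. Trim30d averaged 42.8 CPM with Dex + iBRD9 + LPS, 33.4 CPM with Dex + LPS, 42.3 CPM with iBRD9 + LPS and 124 CPM with LPS alone, with an interaction of 1.91 (SE 0.13, adjusted p = 7.4e-11). Since Trim30 genes resemble each other, its reads may be shared with neighbours.

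The interferon-beta gene itself, Ifnb1, was low. Ifnb1 (ENSMUSG00000048806; mm10 chr4:88522025-88522774, minus strand) had 0.351, 0.309 and 0.281 CPM with Dex + iBRD9 + LPS, 0.260, 0.825 and 0.503 CPM with Dex + LPS, 0.271, 0.704 and 0.385 CPM with iBRD9 + LPS, and 6.37, 6.07 and 5.61 CPM with LPS alone, and no count in the vehicle libraries. The 9 libraries with either compound were under 1 CPM, while those with LPS alone were at 5.61 CPM or above. Its interaction was 3.05 (SE 0.63, adjusted p = 7.7e-04). With so few reads in 3 of the 4 groups this value has a wide error.

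The interferon-inducible GTPases act against intracellular bacteria and parasites. Of 14 tested members 13 were higher (17.3% of all genes tested) and none lower, with a median interaction of 2.03. The member not called, named after its values were seen, was Gbp8, which was under 1 CPM in all 4 groups. Irgm2 regulates the other members of the family. Irgm2 (ENSMUSG00000069874; mm10 chr11:58199618-58222782, plus strand) had 62.6, 55.2 and 59.5 CPM with Dex + iBRD9 + LPS, 67.8, 66.3 and 68.8 CPM with Dex + LPS, 35.7, 50.5 and 37.5 CPM with iBRD9 + LPS, and 247, 249 and 256 CPM with LPS alone, with LPS alone far above the rest and the combination above iBRD9 + LPS in every library. Its interaction was 2.41 (SE 0.14, adjusted p = 1.3e-11). Its exons overlap those of Igtp on the same strand, a family member that also had a higher interaction, so reads may be shared. Iigp1 and Gvin1 had interactions of 3.34 (SE 0.29, adjusted p = 5.2e-09) and 2.76 (SE 0.24, adjusted p = 7.6e-09).

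Promoters of this group are shown because they carry the interferon-stimulated response element. The windows run from 250 bases before to 50 after the gene start, from RefSeq (GRCm38.p6), and capitals mark the letters TTTCNNTTTC, searched on both strands (GAAANNGAAA on the other). Ifit3 is at chr19:34583279-34583578 on the plus strand and Irgm2 at chr11:58214727-58215026 on the plus strand.
Ifit3: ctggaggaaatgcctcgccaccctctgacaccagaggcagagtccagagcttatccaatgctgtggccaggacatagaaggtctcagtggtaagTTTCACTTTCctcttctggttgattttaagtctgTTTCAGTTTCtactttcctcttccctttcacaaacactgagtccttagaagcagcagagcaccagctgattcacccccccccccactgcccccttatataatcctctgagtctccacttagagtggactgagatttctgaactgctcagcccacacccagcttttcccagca
Irgm2: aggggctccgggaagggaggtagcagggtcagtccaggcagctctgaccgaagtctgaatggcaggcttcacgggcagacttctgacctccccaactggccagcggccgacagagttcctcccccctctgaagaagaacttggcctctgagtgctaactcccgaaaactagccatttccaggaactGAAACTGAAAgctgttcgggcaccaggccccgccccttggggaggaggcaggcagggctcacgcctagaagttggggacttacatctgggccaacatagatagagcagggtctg
The Ifit3 window holds 2 matches, which begin 156 and 122 bases before the gene start of RefSeq. The Irgm2 window holds 1, which begins 64 bases before its RefSeq start. For Irgm2 that start lies within the mm10 span of the gene given above, downstream of its first base. Of the 7655 tested genes with a single window, 3.46% have a match, against 56.1% (23 of 41) in the type I interferon list and 87.5% (7 of 8) among the GTPases. Among genes with a higher interaction the share was 8.38% (108 of 1289), among those with a lower interaction 1.67%, and among those not called 2.66%. A match is a description of the letters and not evidence of binding.

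**Figure D2:**
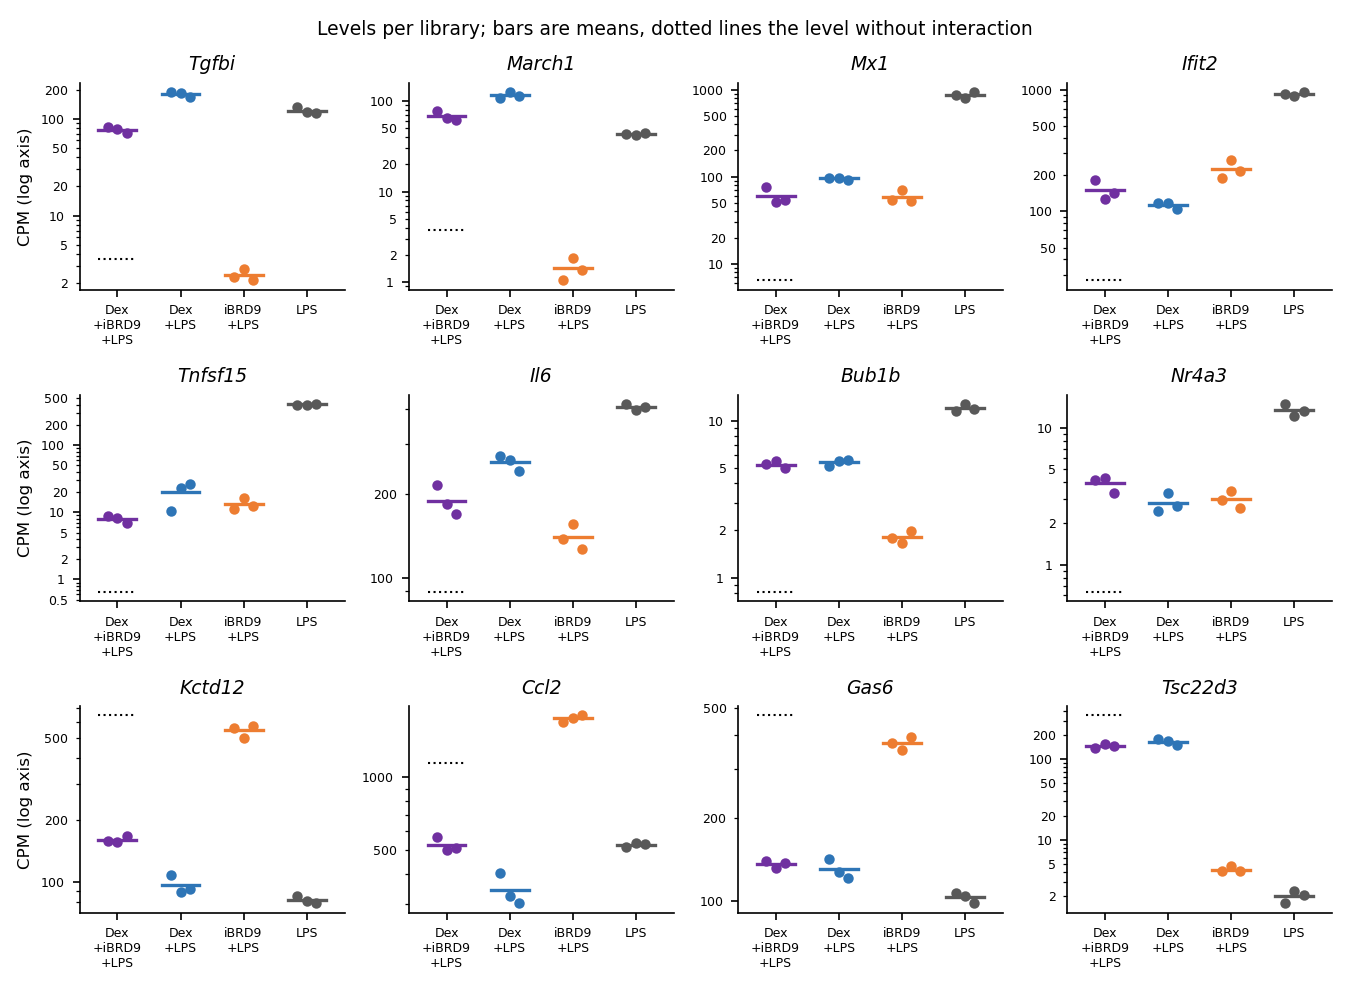
CPM of 12 genes in each library on log axes, with Dex + iBRD9 + LPS, Dex + LPS, iBRD9 + LPS and LPS alone along the horizontal axis. Points are libraries, bars group means, and dotted lines the level that the combination would have without an interaction. For Tgfbi, March1, Mx1, Ifit2, Tnfsf15, Il6, Bub1b and Nr4a3 the points of the combination lie above the dotted line, and for Kctd12, Ccl2, Gas6 and Tsc22d3 below it.

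Most called cytokine genes had a higher interaction. Of 23 tested cytokine genes, 13 had a higher interaction and 3 a lower interaction (Il12b, Csf3 and Tnfsf9), with a median of 0.61. List members given in brackets after a count were named after their values were seen. Of all genes tested 17.3% were higher and 16% lower, which are the shares to set beside this and each later list count. Tnfsf15 encodes TL1A, a ligand of the TNF family. Tnfsf15 (ENSMUSG00000050395; mm10 chr4:63727084-63745113, minus strand) had 8.72, 8.18 and 6.84 CPM with Dex + iBRD9 + LPS, 10.3, 23.2 and 26.7 CPM with Dex + LPS, 11.1, 16.2 and 12.4 CPM with iBRD9 + LPS, and 400.2, 405 and 414 CPM with LPS alone. LPS alone was far above all other libraries, and the combination was lowest in every library. Replicate 1 of Dex + LPS, the library with the length trend, was well below the other 2 of its group. The interaction was 3.61 (SE 0.32, adjusted p = 8.9e-09), and without that library it was 3.28 (adjusted p = 6.1e-15).

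The subunit genes of interleukins 12 and 23 did not move together. Il12a, which encodes the p35 subunit of IL-12, had 4.31, 3.55 and 3.75 CPM with Dex + iBRD9 + LPS, 8.11, 7.64 and 7.77 CPM with Dex + LPS, 1.93, 3.69 and 1.84 CPM with iBRD9 + LPS, and 33.7, 34.5 and 34.4 CPM with LPS alone, and an interaction of 2.77 (SE 0.22, adjusted p = 3.4e-09). Its combination libraries lay below those of Dex + LPS, while 2 of the 3 lay above all iBRD9 + LPS libraries. Il23a, for the p19 subunit of IL-23, averaged 1.44 CPM with Dex + iBRD9 + LPS, 2.81 CPM with Dex + LPS, 3.42 CPM with iBRD9 + LPS and 33.4 CPM with LPS alone, with an interaction of 2.34 (SE 0.31, adjusted p = 4.5e-06). Il12b, for the p40 subunit that both cytokines share, had 40.9, 36.8 and 34.0 CPM with Dex + iBRD9 + LPS, 41.4, 35.9 and 36.7 CPM with Dex + LPS, 215, 209.6 and 204 CPM with iBRD9 + LPS, and 131, 122 and 126 CPM with LPS alone. Its iBRD9 + LPS libraries were the highest and the combination overlapped Dex + LPS, which gave an interaction of -0.77 (SE 0.10, adjusted p = 6.6e-06). Il12b was therefore raised by iBRD9 in cells without Dex (0.73) and not called with Dex (-0.032, adjusted p = 0.78).

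Il6 and Tnf, the classic cytokine genes of LPS-stimulated macrophages, both had higher interactions. Il6 (ENSMUSG00000025746; mm10 chr5:30013114-30019981, plus strand) had 214, 184 and 169 CPM with Dex + iBRD9 + LPS, 273, 264 and 240.1 CPM with Dex + LPS, 138, 157 and 127 CPM with iBRD9 + LPS, and 416, 395 and 407 CPM with LPS alone, and the combination lay between iBRD9 + LPS and Dex + LPS in every library. Its interaction was 1.07 (SE 0.11, adjusted p = 2.3e-07). Tnf (ENSMUSG00000024401; mm10 chr17:35199381-35202007, minus strand) had 4348, 4217 and 4068 CPM with Dex + iBRD9 + LPS, 4980.5, 5152 and 5201 CPM with Dex + LPS, 4472, 4658 and 4263 CPM with iBRD9 + LPS, and 8680.0, 8589 and 8009 CPM with LPS alone, with the combination overlapping iBRD9 + LPS. Its interaction was 0.64 (SE 0.063, adjusted p = 4.4e-08). For Il1b, the gene of interleukin 1-beta, the effects of iBRD9 on the log2 scale were -0.19 with Dex and -0.24 without Dex, and the interaction of 0.053 (SE 0.076, adjusted p = 0.64) was not called. Il10, an anti-inflammatory cytokine gene at 0.646 CPM with Dex + iBRD9 + LPS, 1.77 CPM with Dex + LPS, 3.17 CPM with iBRD9 + LPS and 10.4 CPM with LPS alone, had an interaction of 0.25 (SE 0.46, adjusted p = 0.72), which was not called and has a wide error.

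Of 22 tested chemokine genes, 12 had a higher and 5 a lower interaction (Ccl8, Ccl7, Ccl2, Ccl12 and Ccl4), against 17.3% and 16% of all genes tested. Ccl12 was not called without replicate 1 of Dex + LPS, and 3 were lower without replicate 3 of Dex + iBRD9 + LPS, replicate 2 of iBRD9 + LPS or replicate 3 of LPS alone. Cxcl10, a chemokine that draws T cells and that interferon induces, had 379, 298 and 323 CPM with Dex + iBRD9 + LPS, 433, 356 and 341 CPM with Dex + LPS, 467, 486 and 491 CPM with iBRD9 + LPS, and 1189, 1112 and 1189.7 CPM with LPS alone, and an interaction of 1.09 (SE 0.13, adjusted p = 4.8e-07). Cxcl3, a neutrophil attractant, had 101, 89.3 and 86.5 CPM with Dex + iBRD9 + LPS, 206, 183 and 196 CPM with Dex + LPS, 147, 158 and 134 CPM with iBRD9 + LPS, and 1184, 1182 and 1141 CPM with LPS alone, with the combination lowest in every library and an interaction of 1.92 (SE 0.096, adjusted p = 1.1e-12). Ccl22, a ligand of CCR4, had 23.8, 19.1 and 20.1 CPM with Dex + iBRD9 + LPS, 21, 16.2 and 15.6 CPM with Dex + LPS, 147, 207 and 161 CPM with iBRD9 + LPS, and 616, 647 and 634 CPM with LPS alone. Its combination libraries overlapped those of Dex + LPS, and the interaction was 2.13 (SE 0.16, adjusted p = 7.8e-10).

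The monocyte attractants Ccl2 and Ccl7 showed the opposite sign. Ccl2 (ENSMUSG00000035385; mm10 chr11:82035571-82037453, plus strand) had 567, 502 and 511 CPM with Dex + iBRD9 + LPS, 403, 325 and 303 CPM with Dex + LPS, 1699, 1759 and 1803 CPM with iBRD9 + LPS, and 516, 536 and 531 CPM with LPS alone, so that iBRD9 + LPS stood far above the other groups, and the combination overlapped LPS alone. iBRD9 raised Ccl2 by 0.62 (SE 0.075, adjusted p = 1.1e-06) with Dex and by 1.73 (SE 0.076, adjusted p = 8.4e-15) without Dex, and the interaction was -1.12 (SE 0.11, adjusted p = 2.2e-08). Ccl7 had 76.4, 68.1 and 66.4 CPM with Dex + iBRD9 + LPS, 67.9, 52.9 and 51.8 CPM with Dex + LPS, 311, 338 and 337 CPM with iBRD9 + LPS, and 80.9, 85.0 and 83.6 CPM with LPS alone, and an interaction of -1.69 (SE 0.12, adjusted p = 2.0e-10). In both genes the effect of iBRD9 was smaller with Dex.

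Enzyme genes of prostaglandin, nitric oxide and itaconate production had 9 of 18 higher and none lower, against 17.3% and 16% of all genes tested. Nos2, the inducible nitric oxide synthase, had 66.9, 62.5 and 77.2 CPM with Dex + iBRD9 + LPS, 25.1, 27.6 and 25.9 CPM with Dex + LPS, 608, 515 and 548 CPM with iBRD9 + LPS, and 309, 309 and 303 CPM with LPS alone. iBRD9 raised it in both settings, by 1.40 with Dex and 0.86 without Dex, with an interaction of 0.53 (SE 0.13, adjusted p = 0.0033). Ptges, the prostaglandin E synthase, averaged 105 CPM with Dex + iBRD9 + LPS, 157 CPM with Dex + LPS, 30.1 CPM with iBRD9 + LPS and 155 CPM with LPS alone, with an interaction of 1.78 (SE 0.10, adjusted p = 6.5e-12). Ass1, which regenerates arginine, the substrate of Nos2, averaged 15.1 CPM with Dex + iBRD9 + LPS, 21.4 CPM with Dex + LPS, 10.4 CPM with iBRD9 + LPS and 76.4 CPM with LPS alone, with an interaction of 2.36 (SE 0.14, adjusted p = 1.6e-11). Ptgs2, which encodes cyclooxygenase-2, had 159.8, 147 and 149 CPM with Dex + iBRD9 + LPS, 222, 297 and 321 CPM with Dex + LPS, 2251, 2672 and 2248 CPM with iBRD9 + LPS, and 4917, 4791 and 4872 CPM with LPS alone, and iBRD9 effects of -0.88 with Dex and -1.02 without Dex. Its interaction of 0.14 (SE 0.14, adjusted p = 0.49) was not called.

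In the NF-kB list, 16 of 34 tested genes were higher (17.3% of all genes tested) and 5 lower (Tnip3, Gadd45b, Rela, Nfkbia and Cd40). The share of lower genes was near the 16% of all genes tested. Vcam1, an adhesion molecule, averaged 24.3 CPM with Dex + iBRD9 + LPS, 64.2 CPM with Dex + LPS, 25.5 CPM with iBRD9 + LPS and 223 CPM with LPS alone, with an interaction of 1.73 (SE 0.12, adjusted p = 1.2e-10). Tnip3, which encodes a partner of the NF-kB inhibitor A20, averaged 277 CPM with Dex + iBRD9 + LPS, 278 CPM with Dex + LPS, 682 CPM with iBRD9 + LPS and 324 CPM with LPS alone, and its interaction was -1.08 (SE 0.068, adjusted p = 3.8e-11). For Tnip3 the effect of iBRD9 was 1.07 without Dex and -0.0036 with Dex.

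Among phosphatases of MAP kinases and other brakes on signalling, 5 of 21 were higher (Rgs2, Rgs1, Cish, Dusp6 and Socs1) and 7 lower. Over all genes tested 17.3% were higher and 16% lower. Rgs2, a brake on G protein signalling, had 6.41, 4.63 and 4.07 CPM with Dex + iBRD9 + LPS, 11.8, 9.40 and 9.32 CPM with Dex + LPS, 11.9, 15.9 and 11 CPM with iBRD9 + LPS, and 109, 113 and 108 CPM with LPS alone. LPS alone was far above the rest and the combination was lowest in every library, for an interaction of 2.07 (SE 0.20, adjusted p = 2.2e-08). Dusp7, a phosphatase of ERK kinases, had 31.7, 33.1 and 27.0 CPM with Dex + iBRD9 + LPS, 38.9, 37.6 and 39.0 CPM with Dex + LPS, 41.3, 39.5 and 43.0 CPM with iBRD9 + LPS, and 22.4, 26.5 and 24.8 CPM with LPS alone. Here iBRD9 lowered the transcript with Dex (-0.33, adjusted p = 0.0024) and raised it without Dex (0.75, adjusted p = 3.4e-08), and the interaction was -1.08 (SE 0.11, adjusted p = 1.1e-07).

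**Figure D3:**
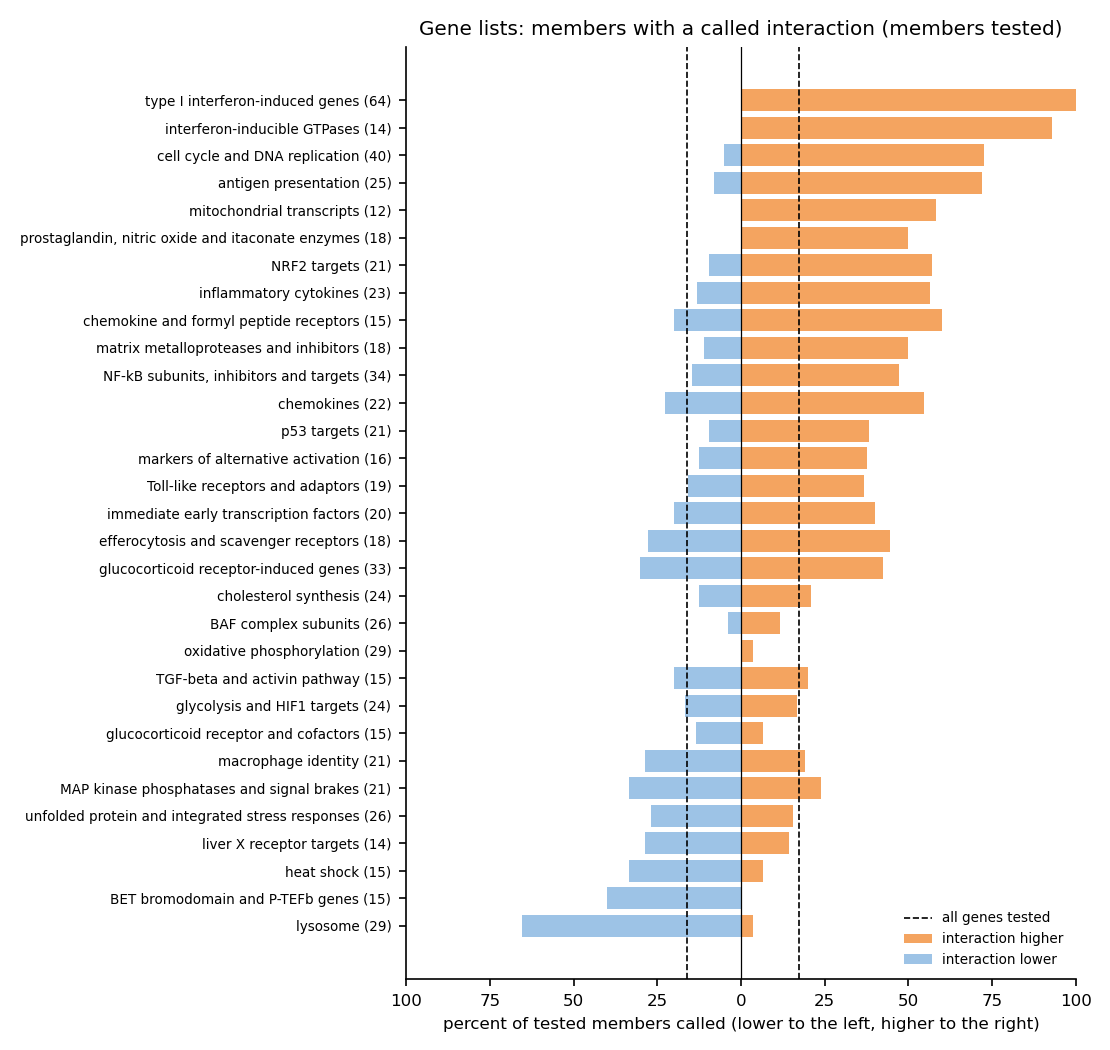
Bars give, for gene lists with at least 10 tested members, the percent of members with a called higher interaction (orange, to the right) and a called lower one (blue, to the left). Numbers in brackets are the members tested, and dashed lines mark the shares over all genes tested, 17.3% and 16%. The type I interferon list reaches 100% (64 of 64) on the higher side, and the lysosome list has the longest bar on the lower side (19 of 29).

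Receptor genes of the innate response held some of the largest values. Among Toll-like receptors and adaptors, 7 of 19 were higher (17.3% of all genes tested) and 3 lower (Tlr2, Ticam1 and Tollip). Here too the share of lower genes was near the 16% of all genes tested. Tlr8 and Tlr7, which sense RNA in endosomes, both had higher interactions. Tlr8 had 86.3, 87.6 and 78.5 CPM with Dex + iBRD9 + LPS, 54.7, 103 and 99.7 CPM with Dex + LPS, 14.3, 16.4 and 11.7 CPM with iBRD9 + LPS, and 104, 106 and 114 CPM with LPS alone. Replicate 1 of Dex + LPS again lay below its group, and the interaction was 2.90 (SE 0.23, adjusted p = 1.5e-09), or 2.65 without that library. The iBRD9 effect on Tlr8 was -0.027 with Dex (adjusted p = 0.91, but -0.27 with adjusted p = 0.014 without that library) and -2.93 without Dex. Tlr7 had 84.8, 79.0 and 74.7 CPM with Dex + iBRD9 + LPS, 146, 165 and 179 CPM with Dex + LPS, 13.8, 18.4 and 13.9 CPM with iBRD9 + LPS, and 187, 185 and 194 CPM with LPS alone, and the 4 groups did not overlap, with Dex + LPS just below LPS alone. Its interaction was 2.58 (SE 0.12, adjusted p = 6.1e-13). Tlr13, a sensor of bacterial ribosomal RNA, averaged 248 CPM with Dex + iBRD9 + LPS, 296 CPM with Dex + LPS, 33.0 CPM with iBRD9 + LPS and 102 CPM with LPS alone, with an interaction of 1.37 (SE 0.093, adjusted p = 1.2e-10).

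Of 15 tested chemokine and formyl peptide receptor genes, 9 were higher and 3 lower (C5ar1, Ccrl2 and C3ar1), against 17.3% and 16% of all genes tested. Cmklr1, the chemerin receptor gene, had 61.8, 57.0 and 49.3 CPM with Dex + iBRD9 + LPS, 128, 150.3 and 154 CPM with Dex + LPS, 2.68, 3.85 and 2.52 CPM with iBRD9 + LPS, and 68.6, 65.8 and 64.5 CPM with LPS alone. In cells without Dex iBRD9 took it to under 4 CPM, while with Dex it lay just below the libraries with LPS alone, for an interaction of 3.10 (SE 0.16, adjusted p = 2.4e-12). Cx3cr1, the fractalkine receptor gene, had 0.701, 0.669 and 0.749 CPM with Dex + iBRD9 + LPS, 1.6, 1.15 and 1.19 CPM with Dex + LPS, 0.373, 0.373 and 0.0855 CPM with iBRD9 + LPS, and 15, 13.8 and 14.6 CPM with LPS alone. Its value of 4.73 (SE 0.46, adjusted p = 2.8e-08) is among the largest, but rests on few reads in the 3 groups under 2 CPM. Fpr2, which senses formyl peptides and annexin A1 and is itself raised by glucocorticoids, had 36.2, 32.9 and 30.7 CPM with Dex + iBRD9 + LPS, 123, 104 and 90.6 CPM with Dex + LPS, 4.07, 4.60 and 3.68 CPM with iBRD9 + LPS, and 69.5, 65.1 and 63.6 CPM with LPS alone, and an interaction of 2.33 (SE 0.16, adjusted p = 2.1e-10).

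Antigen presentation genes had 18 of 25 higher and 2 lower (H2-D1 and H2-K1), against 17.3% and 16% of all genes tested. H2-Aa, an MHC class II chain gene, had 2.71, 2.47 and 2.53 CPM with Dex + iBRD9 + LPS, 6.07, 5.0 and 5.07 CPM with Dex + LPS, 5.46, 8.95 and 5.0 CPM with iBRD9 + LPS, and 116, 115 and 121 CPM with LPS alone. LPS alone was far above the rest, the combination was lowest in every library, and the interaction was 3.12 (SE 0.26, adjusted p = 2.7e-09). Ciita, the master regulator of MHC class II genes, averaged 1.31 CPM with Dex + iBRD9 + LPS, 2.19 CPM with Dex + LPS, 2.95 CPM with iBRD9 + LPS and 32.2 CPM with LPS alone, with an interaction of 2.72 (SE 0.28, adjusted p = 7.1e-08). Its exons overlap those of Dexi on the other strand, and the strand setting of the counting is not given in the sources used here. Itgax, which encodes CD11c and was listed as a dendritic cell marker, averaged 182 CPM with Dex + iBRD9 + LPS, 241 CPM with Dex + LPS, 224 CPM with iBRD9 + LPS and 1009 CPM with LPS alone, with an interaction of 1.77 (SE 0.088, adjusted p = 1.1e-12). The other dendritic cell markers were low, so the summed level of all 10 markers was mostly Itgax itself. The part of Itgax in the antigen presentation values was not tested.

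Among genes for the uptake of dying cells and scavenging, 8 of 18 were higher and 5 lower (Gas6, Scarb1, C1qb, C1qc and Stab1). Their called share was 72.2%, against 33.2% of all genes tested. Axl and its bridging ligand Gas6 had opposite signs. Axl had 25, 26.5 and 25.4 CPM with Dex + iBRD9 + LPS, 32.7, 38.4 and 38.6 CPM with Dex + LPS, 24.8, 28.5 and 23.5 CPM with iBRD9 + LPS, and 123, 117 and 126 CPM with LPS alone, so that the combination overlapped iBRD9 + LPS and LPS alone was far above. The interaction of Axl was 1.75 (SE 0.099, adjusted p = 7.8e-12). Gas6 (ENSMUSG00000031451; mm10 chr8:13465374-13494490, minus strand) had 139, 131 and 137 CPM with Dex + iBRD9 + LPS, 142, 127 and 121 CPM with Dex + LPS, 373, 353 and 393 CPM with iBRD9 + LPS, and 107, 104 and 97.7 CPM with LPS alone, so that iBRD9 + LPS was far above the other groups, which lay near each other. Its interaction was -1.79 (SE 0.097, adjusted p = 4.0e-12). Msr1, a scavenger receptor gene, averaged 222 CPM with Dex + iBRD9 + LPS, 669.6 CPM with Dex + LPS, 70.3 CPM with iBRD9 + LPS and 601 CPM with LPS alone, with an interaction of 1.5 (SE 0.13, adjusted p = 3.4e-09).

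Genes of macrophage identity had 4 of 21 higher (Fcgr1, Itgam, Ptprc and Csf1r) and 6 lower. Their called share was 47.6%, against 33.2% of all genes tested. Itgam, which encodes CD11b, had 537, 509 and 458 CPM with Dex + iBRD9 + LPS, 803, 1060.2 and 1068 CPM with Dex + LPS, 244, 282 and 256 CPM with iBRD9 + LPS, and 1150.0, 1138 and 1135 CPM with LPS alone. The 4 groups did not overlap, and the interaction was 1.17 (SE 0.12, adjusted p = 5.2e-08). Cd68, a lysosomal glycoprotein gene, averaged 819.8 CPM with Dex + iBRD9 + LPS, 956 CPM with Dex + LPS, 1396 CPM with iBRD9 + LPS and 1072 CPM with LPS alone, with an interaction of -0.60 (SE 0.12, adjusted p = 3.9e-04). Of 16 tested genes of alternative activation, 6 were higher and 2 lower (Pparg and Tgm2). The count of lower genes was 1 with any 1 of 9 of the 12 libraries left out. Among these was replicate 1 of Dex + LPS, without which Pparg was not called and 7 were higher. Chil3, the gene of a chitinase-like protein, averaged 8.70 CPM with Dex + iBRD9 + LPS, 28.5 CPM with Dex + LPS, 0.326 CPM with iBRD9 + LPS and 3.30 CPM with LPS alone, with an interaction of 1.61 (SE 0.27, adjusted p = 7.4e-05). Egr2, a transcription factor gene, averaged 32.2 CPM with Dex + iBRD9 + LPS, 80.4 CPM with Dex + LPS, 26.2 CPM with iBRD9 + LPS and 102 CPM with LPS alone, with an interaction of 0.64 (SE 0.099, adjusted p = 2.4e-05).

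Of 18 matrix metalloprotease and inhibitor genes, 9 were higher and 2 lower (Adamts4 and Timp2), against 17.3% and 16% of all genes tested. Mmp9, the gelatinase B gene, had 40.4, 36.8 and 33.1 CPM with Dex + iBRD9 + LPS, 47.8, 54.0 and 49.5 CPM with Dex + LPS, 78.8, 112 and 80.9 CPM with iBRD9 + LPS, and 301, 326 and 319 CPM with LPS alone. The combination was lowest in every library and LPS alone highest, for an interaction of 1.35 (SE 0.15, adjusted p = 2.8e-07). Timp1, an inhibitor of these proteases, averaged 1.45 CPM with Dex + iBRD9 + LPS, 2.12 CPM with Dex + LPS, 2.54 CPM with iBRD9 + LPS and 19.9 CPM with LPS alone, with an interaction of 2.41 (SE 0.31, adjusted p = 2.0e-06). In the TGF-beta and activin pathway 40% of tested genes were called, against 33.2% of all genes tested. Of the 15 genes, 3 were higher (Tgfbi, Inhba and Tgfbr1) and 3 lower (Tgfb1, Tgfbr2 and Smad2). Without replicate 1 of Dex + LPS 2 were higher and 5 lower, and Inhba, the activin A subunit gene, was not called (1.41, adjusted p = 0.062). Tgfb1, the ligand gene, averaged 388 CPM with Dex + iBRD9 + LPS, 391 CPM with Dex + LPS, 779 CPM with iBRD9 + LPS and 459.9 CPM with LPS alone, with an interaction of -0.77 (SE 0.10, adjusted p = 2.8e-06), and Tgfbr1, a receptor gene, had an interaction of 0.80 (SE 0.13, adjusted p = 4.4e-05).

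Markers of other cell types were measured beside these results. The 12 neutrophil markers summed to 46.5 to 49.0 CPM with Dex + iBRD9 + LPS, 116 to 119 CPM with Dex + LPS, 20.8 to 24.6 CPM with iBRD9 + LPS and 85.8 to 95.1 CPM with LPS alone. Mmp8 and Csf3r led that sum, and 6 of 7 tested markers had a higher interaction. Mmp8, a collagenase gene, had 21.7, 22.6 and 24.3 CPM with Dex + iBRD9 + LPS, 65.6, 68.5 and 71.9 CPM with Dex + LPS, 0.305, 0.663 and 0.299 CPM with iBRD9 + LPS, and 10.0, 9.65 and 7.87 CPM with LPS alone, and an interaction of 2.87 (SE 0.25, adjusted p = 6.3e-09). Among stromal markers Pdgfrb led, with 16.3 CPM with Dex + iBRD9 + LPS, 42.5 CPM with Dex + LPS, 1.37 CPM with iBRD9 + LPS and 30.9 CPM with LPS alone and an interaction of 3.07 (SE 0.19, adjusted p = 2.5e-11). Of B cell markers, all but Ighm were near 0, and Ighm averaged 13.4 CPM with Dex + iBRD9 + LPS, 16.1 CPM with Dex + LPS, 27.2 CPM with iBRD9 + LPS and 20.3 CPM with LPS alone, with an interaction of -0.69 (SE 0.15, adjusted p = 9.5e-04). The single tested erythroid marker, the transferrin receptor gene Tfrc, had an interaction of 0.47 (SE 0.10, adjusted p = 0.0013). The part of such cells in the other results was not tested.

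The largest higher interactions, among called genes with at least 10 CPM in the highest of the 4 groups and 30 counts in each group, began with Tgfbi (4.43), Il1f9 (4.30) and March1 (4.18). Tgfbi encodes an extracellular matrix protein that TGF-beta induces. Tgfbi (ENSMUSG00000035493; mm10 chr13:56609523-56639562, plus strand) had 82.2, 78.8 and 71.7 CPM with Dex + iBRD9 + LPS, 188, 185 and 170.0 CPM with Dex + LPS, 2.31, 2.78 and 2.14 CPM with iBRD9 + LPS, and 133, 117 and 114 CPM with LPS alone. iBRD9 + LPS was far below all other libraries, and the combination lay between it and LPS alone. The effect of iBRD9 was -1.22 (SE 0.092, adjusted p = 8.9e-10) with Dex and -5.65 (SE 0.13, adjusted p = 3.4e-19) without Dex, and the interaction was 4.43 (SE 0.16, adjusted p = 9.1e-15).

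March1 encodes a ubiquitin ligase that removes MHC class II and CD86 from the surface. March1 (ENSMUSG00000036469; mm10 chr8:65617900-66471637, plus strand) had 76.2, 65.0 and 61.1 CPM with Dex + iBRD9 + LPS, 108, 124 and 112 CPM with Dex + LPS, 1.05, 1.86 and 1.37 CPM with iBRD9 + LPS, and 43.5, 42.2 and 44.6 CPM with LPS alone. The combination lay above LPS alone in every library, and iBRD9 + LPS was under 2 CPM. Its interaction was 4.18 (SE 0.15, adjusted p = 9.1e-15). The other 10 genes of this rule were Il1f9, the gene of an interleukin 36 cytokine, Ifi206, P2ry14, Ifi213, Ocstamp, Thbs1, Tnfsf15, Ifi208, Ifit3b and Tnfsf10. Their interactions ran from 3.57 (Tnfsf10) to 4.30 (Il1f9). P2ry14, a receptor gene for UDP-sugars, averaged 3.85 CPM with Dex + iBRD9 + LPS, 5.87 CPM with Dex + LPS, 0.868 CPM with iBRD9 + LPS and 20.5 CPM with LPS alone. Thbs1, the gene of thrombospondin 1, averaged 3.16 CPM with Dex + iBRD9 + LPS, 13.1 CPM with Dex + LPS, 0.433 CPM with iBRD9 + LPS and 23.2 CPM with LPS alone. Ifi206, Ifi208 and Ifi213 lie in a family of similar genes, so reads may be shared between them.

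Cell cycle and DNA replication genes were the other large group with higher interactions. Of 40 tested genes, 29 were higher (17.3% of all genes tested) and 2 lower (Cdt1 and E2f1, named after their values were seen), with a median of 1.20. Without replicate 1 of Dex + LPS these counts were 30 and 1, as E2f1 was not called, and 1 was lower with any 1 of 4 other libraries left out. The median iBRD9 effect was -0.24 with Dex and -1.64 without Dex. 35 of the 40 genes had their highest mean of the 4 groups with LPS alone, against 30.4% of all genes tested. The sign of the interaction is computed from the same means, so this share only describes the form. The mean with LPS alone was above that of vehicle in 4 of the 40 genes, against 6001 of the 12662 genes tested. This difference from vehicle was not tested.

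Bub1b encodes a kinase of the spindle checkpoint. Bub1b (ENSMUSG00000040084; mm10 chr2:118598211-118641591, plus strand) had 5.26, 5.51 and 4.96 CPM with Dex + iBRD9 + LPS, 5.16, 5.50 and 5.62 CPM with Dex + LPS, 1.80, 1.66 and 1.97 CPM with iBRD9 + LPS, and 11.6, 12.8 and 11.9 CPM with LPS alone, and 31.7, 31.9 and 32.3 CPM with vehicle. The combination overlapped Dex + LPS, iBRD9 + LPS was lowest, and the interaction was 2.69 (SE 0.13, adjusted p = 1.1e-12). Cdc20, an activator of the anaphase-promoting complex, had 8.92, 8.65 and 9.37 CPM with Dex + iBRD9 + LPS, 10.7, 10.1 and 9.00 CPM with Dex + LPS, 1.46, 1.62 and 1.92 CPM with iBRD9 + LPS, and 11, 11.4 and 11.4 CPM with LPS alone. Its interaction was 2.62 (SE 0.16, adjusted p = 2.1e-11). The exons of Cdc20 overlap those of Elovl1 on the other strand, a gene with higher counts, so part of its reads may be from Elovl1. Cenpe, a kinetochore motor gene, had 9.82, 10.6 and 12.3 CPM with Dex + iBRD9 + LPS, 7.67, 9.62 and 9.64 CPM with Dex + LPS, 3.56, 3.73 and 3.16 CPM with iBRD9 + LPS, and 17.8, 17.2 and 17.8 CPM with LPS alone, and an interaction of 2.62 (SE 0.15, adjusted p = 6.5e-12). The iBRD9 effect on Cenpe was 0.29 with Dex and -2.33 without Dex, both called, but without replicate 1 of Dex + LPS the effect with Dex was 0.18 (adjusted p = 0.19).

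The promoters of Bub1b and Cdc20 are shown because cell cycle genes often carry the cell cycle genes homology region near their start. Capitals mark its letters TTTGAA, searched on both strands (TTCAAA on the other), in windows from RefSeq (GRCm38.p6) at chr2:118597961-118598260 on the plus strand and chr4:118437294-118437593 on the minus strand.
Bub1b: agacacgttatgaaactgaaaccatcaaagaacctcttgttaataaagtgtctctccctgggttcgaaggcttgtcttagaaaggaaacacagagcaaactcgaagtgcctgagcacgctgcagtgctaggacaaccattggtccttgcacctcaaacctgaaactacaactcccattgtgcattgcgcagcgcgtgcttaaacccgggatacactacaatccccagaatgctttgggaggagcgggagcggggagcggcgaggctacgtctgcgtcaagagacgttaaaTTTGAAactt
Cdc20: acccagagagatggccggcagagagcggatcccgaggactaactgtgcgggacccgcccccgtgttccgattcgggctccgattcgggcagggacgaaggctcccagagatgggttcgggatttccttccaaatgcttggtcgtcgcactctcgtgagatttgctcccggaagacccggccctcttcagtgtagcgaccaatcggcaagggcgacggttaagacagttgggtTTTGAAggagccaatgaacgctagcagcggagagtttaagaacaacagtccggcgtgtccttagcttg
The match begins 41 bases after the gene start in Bub1b and 18 bases before it in Cdc20. It occurs in 12.1% of the 7655 windows of tested genes and in 43.3% (13 of 30) of the cell cycle list. Among genes with a higher interaction the share was 19.2%, among those with a lower interaction 9.22%, and among those not called 11.1%. The match was not particular to cell cycle genes. Over the other lists searched it ran from 0% (0 of 14, cytokines) to 50% (4 of 8, GTPases), with 26.8% (11 of 41) in the type I interferon list. Here too a match is not evidence of binding.

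Genes that the glucocorticoid receptor induces split between both directions, as did all genes tested (17.3% higher and 16% lower). Of 33 tested genes of this list, 14 had a higher and 10 a lower interaction, a called share of 72.7% against 33.2%. With Dex, iBRD9 lowered 16 and raised 5 of them, and without Dex it lowered 17 and raised 10. The receptor gene itself, Nr3c1, had 132, 129 and 135 CPM with Dex + iBRD9 + LPS, 85.9, 137 and 131 CPM with Dex + LPS, 159.6, 167 and 168 CPM with iBRD9 + LPS, and 157, 149 and 156 CPM with LPS alone, and an interaction of 0.066 (SE 0.15, adjusted p = 0.77), which was not called. Replicate 1 of Dex + LPS was low for Nr3c1. Of 15 tested genes of the receptor and its cofactors, 1 was higher (Ptges3) and 2 were lower (Hdac3 and Hsp90aa1), and without that library 1 and 4. The count of higher genes was 2 without replicate 2 and 3 without replicate 3 of Dex + LPS.

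Tsc22d3, Per1, Dusp1 and Fkbp5 were among the 10 genes of this list on the lower side. Klf9, Sgk1 and Anxa1, named after their values were seen, were among the 14 on the higher side. Tsc22d3 encodes GILZ, an inhibitor of NF-kB and AP-1. Tsc22d3 (ENSMUSG00000031431; mm10 chrX:140539528-140600659, minus strand) had 137, 155 and 144 CPM with Dex + iBRD9 + LPS, 177, 168 and 149 CPM with Dex + LPS, 4.07, 4.68 and 4.11 CPM with iBRD9 + LPS, and 1.64, 2.34 and 2.10 CPM with LPS alone. The combination had slightly lower levels than Dex + LPS, with 1 library in its range, while iBRD9 + LPS was above LPS alone in every library. The interaction was -1.25 (SE 0.17, adjusted p = 3.4e-06), with an iBRD9 effect of -0.18 with Dex (adjusted p = 0.06) and 1.07 without Dex. The fold without Dex thus comes from levels of 1.64 to 4.68 CPM.

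Per1, a clock gene, averaged 89.2 CPM with Dex + iBRD9 + LPS, 87.6 CPM with Dex + LPS, 21.5 CPM with iBRD9 + LPS and 10.9 CPM with LPS alone, with an interaction of -0.96 (SE 0.091, adjusted p = 2.1e-08). Dusp1, a phosphatase that switches off MAP kinases, had 550.0, 559 and 543 CPM with Dex + iBRD9 + LPS, 638, 651 and 638 CPM with Dex + LPS, 118, 116 and 124 CPM with iBRD9 + LPS, and 89.0, 89.8 and 83.0 CPM with LPS alone. The combination was below Dex + LPS in every library and iBRD9 + LPS above LPS alone, for an interaction of -0.67 (SE 0.066, adjusted p = 4.4e-08). Fkbp5, a chaperone partner of the receptor, had 538, 524 and 519 CPM with Dex + iBRD9 + LPS, 533, 546 and 537 CPM with Dex + LPS, 36.6, 34.2 and 36.2 CPM with iBRD9 + LPS, and 29.2, 26.9 and 27.4 CPM with LPS alone. The combination overlapped Dex + LPS, and the interaction was -0.39 (SE 0.077, adjusted p = 4.2e-04).

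On the higher side stood genes that iBRD9 lowered without Dex. Lcn2, the gene of the iron-binding protein lipocalin 2, had 226, 222 and 220.4 CPM with Dex + iBRD9 + LPS, 294, 229 and 228 CPM with Dex + LPS, 5.02, 5.43 and 4.23 CPM with iBRD9 + LPS, and 29.6, 27.3 and 25 CPM with LPS alone. The combination was below Dex + LPS in every library, and replicate 1 of Dex + LPS was above the other 2. The interaction was 2.31 (SE 0.15, adjusted p = 6.9e-11), and without replicate 1 it was 2.44. Cd163, the haemoglobin scavenger receptor gene, averaged 20.6 CPM with Dex + iBRD9 + LPS, 27.1 CPM with Dex + LPS, 0.379 CPM with iBRD9 + LPS and 1.30 CPM with LPS alone, with an interaction of 1.44 (SE 0.37, adjusted p = 0.0045).

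Among genes with a lower interaction, P4ha2 and Kctd12 were among those with the largest values under the same rule. P4ha2, a collagen prolyl hydroxylase gene, averaged 6.39 CPM with Dex + iBRD9 + LPS, 4.47 CPM with Dex + LPS, 16.2 CPM with iBRD9 + LPS and 2.44 CPM with LPS alone, with an interaction of -2.22 (SE 0.18, adjusted p = 1.4e-09). Kctd12 (ENSMUSG00000098557; mm10 chr14:102976581-102982637, minus strand) had 157, 156 and 166 CPM with Dex + iBRD9 + LPS, 108, 89.2 and 92.4 CPM with Dex + LPS, 559.6, 498 and 574 CPM with iBRD9 + LPS, and 85.4, 80.6 and 78.5 CPM with LPS alone, with the 4 groups apart from each other and iBRD9 + LPS highest. Kctd12 encodes an auxiliary subunit of GABA-B receptors. The iBRD9 effect on it was 0.73 (SE 0.064, adjusted p = 1.0e-08) with Dex and 2.74 (SE 0.067, adjusted p = 5.8e-19) without Dex, and the interaction was -2.01 (SE 0.091, adjusted p = 2.8e-13).

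Tec, the gene of a cytoplasmic tyrosine kinase, averaged 24.6 CPM with Dex + iBRD9 + LPS, 14.7 CPM with Dex + LPS, 74.5 CPM with iBRD9 + LPS and 11.5 CPM with LPS alone, with an interaction of -1.96 (SE 0.12, adjusted p = 1.5e-11). Snx30, a sorting nexin gene, averaged 9.30 CPM with Dex + iBRD9 + LPS, 4.25 CPM with Dex + LPS, 14 CPM with iBRD9 + LPS and 1.84 CPM with LPS alone, with an interaction of -1.80 (SE 0.17, adjusted p = 2.9e-08). Further genes of this rule were Lifr, Gas6, Arl4c, Tbc1d16, Ccl7, Klhl21 and Rnase4, from -1.57 (Rnase4) to -1.89 (Lifr). Arl4c was at 1.08 CPM with Dex + iBRD9 + LPS, 0.817 CPM with Dex + LPS, 15.6 CPM with iBRD9 + LPS and 3.44 CPM with LPS alone, so its value of -1.75 (SE 0.37, adjusted p = 7.5e-04) has a wide error.

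Immediate early transcription factor genes had 8 of 20 higher (17.3% of all genes tested) and 4 lower (Nr4a1, Jun, Myc and Ier3). The share of lower genes was near the 16% of all genes tested. Jun, a subunit of AP-1, had 96.1, 90.0 and 96.2 CPM with Dex + iBRD9 + LPS, 73.2, 59.8 and 63.8 CPM with Dex + LPS, 71.9, 61.4 and 72.6 CPM with iBRD9 + LPS, and 17.1, 17.9 and 18.9 CPM with LPS alone. LPS alone was lowest and the combination highest in every library, and the interaction was -1.41 (SE 0.12, adjusted p = 2.5e-09), since each compound raised Jun more when given without the other. Fos, its partner, averaged 8.98 CPM with Dex + iBRD9 + LPS, 12.5 CPM with Dex + LPS, 2.78 CPM with iBRD9 + LPS and 9.33 CPM with LPS alone, with an interaction of 1.28 (SE 0.19, adjusted p = 1.2e-05). Nr4a3, an orphan nuclear receptor gene, had 4.16, 4.27 and 3.33 CPM with Dex + iBRD9 + LPS, 2.47, 3.35 and 2.70 CPM with Dex + LPS, 2.95, 3.48 and 2.61 CPM with iBRD9 + LPS, and 15, 12.2 and 13.4 CPM with LPS alone, and an interaction of 2.64 (SE 0.23, adjusted p = 6.2e-09). LPS alone was far above the rest, and the combination overlapped iBRD9 + LPS. Its iBRD9 effect was 0.47 with Dex (adjusted p = 0.043) and -2.16 without Dex, and the first of these was 0.38 (adjusted p = 0.14) without replicate 1 of Dex + LPS.

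Lysosomal genes were the list with the most members on the lower side. Of 29 tested genes, 19 were lower (16% of all genes tested) and 1 was higher, with a median interaction of -0.32, and without replicate 1 of Dex + LPS 20 were lower. The median iBRD9 effect was -0.047 with Dex and 0.30 without Dex. Neu1, the gene of a sialidase, had 59.0, 59.2 and 59.5 CPM with Dex + iBRD9 + LPS, 54.3, 48.0 and 49.6 CPM with Dex + LPS, 94.7, 89.5 and 91.7 CPM with iBRD9 + LPS, and 46.2, 46.0 and 44.9 CPM with LPS alone. iBRD9 + LPS stood apart at the top, and the interaction was -0.78 (SE 0.081, adjusted p = 9.0e-08). Ppt1, a thioesterase gene, averaged 91.0 CPM with Dex + iBRD9 + LPS, 84.9 CPM with Dex + LPS, 119 CPM with iBRD9 + LPS and 72.5 CPM with LPS alone, with an interaction of -0.61 (SE 0.070, adjusted p = 3.6e-07). Its exons overlap those of Cap1 on the other strand. Tfeb, the transcription factor that drives lysosomal genes, averaged 19.2 CPM with Dex + iBRD9 + LPS, 21.3 CPM with Dex + LPS, 18.7 CPM with iBRD9 + LPS and 13.7 CPM with LPS alone, with an interaction of -0.60 (SE 0.14, adjusted p = 0.0015). The single higher gene was Mitf, a relative of Tfeb, with 1.03 (SE 0.12, adjusted p = 4.2e-07). The letters CACGTG, the core of the element that Tfeb binds, occur in 47.1% (8 of 17) of the promoter windows of this list, against 10.3% of all windows. Among genes with a lower interaction the share was 12.8%, among those with a higher interaction 8.53%, and among those not called 10.1%. Again a match is not evidence of binding, and a part of Tfeb in these values was not tested.

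Among BET bromodomain and P-TEFb genes, which control the release of paused RNA polymerase, 6 of 15 were lower and none higher, with 1 higher without replicate 3 of Dex + iBRD9 + LPS, replicate 2 of Dex + LPS or replicate 3 of iBRD9 + LPS. Brd2, a BET gene, had 682, 691 and 681 CPM with Dex + iBRD9 + LPS, 563, 566 and 556 CPM with Dex + LPS, 1137, 1016 and 1159.8 CPM with iBRD9 + LPS, and 596, 620.4 and 613 CPM with LPS alone, with iBRD9 + LPS above all other libraries and an interaction of -0.57 (SE 0.070, adjusted p = 1.1e-06). Hexim1, an inhibitor of P-TEFb, averaged 60.9 CPM with Dex + iBRD9 + LPS, 51.8 CPM with Dex + LPS, 60.6 CPM with iBRD9 + LPS and 31.5 CPM with LPS alone, with an interaction of -0.71 (SE 0.094, adjusted p = 3.1e-06). Brd9, the gene of the iBRD9 target, had 29.5, 31.4 and 29.9 CPM with Dex + iBRD9 + LPS, 38.6, 36.7 and 37.6 CPM with Dex + LPS, 25.3, 25.3 and 24.9 CPM with iBRD9 + LPS, and 45.2, 44.7 and 38.9 CPM with LPS alone, and an interaction of 0.46 (SE 0.089, adjusted p = 3.1e-04). The compound acts on the protein, so transcript levels do not show its inhibition. Of 26 tested BAF subunit genes, 3 were higher (Actb, Arid2 and Brd9) and 1 lower (Bcl7b), below the share of all genes. Without replicate 1 of Dex + LPS these counts were 4 and 3, and Bcl7b was not called (-0.21, adjusted p = 0.052). None was lower without replicate 2 or 3 of iBRD9 + LPS or replicate 1 of LPS alone.

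**Figure D4:**
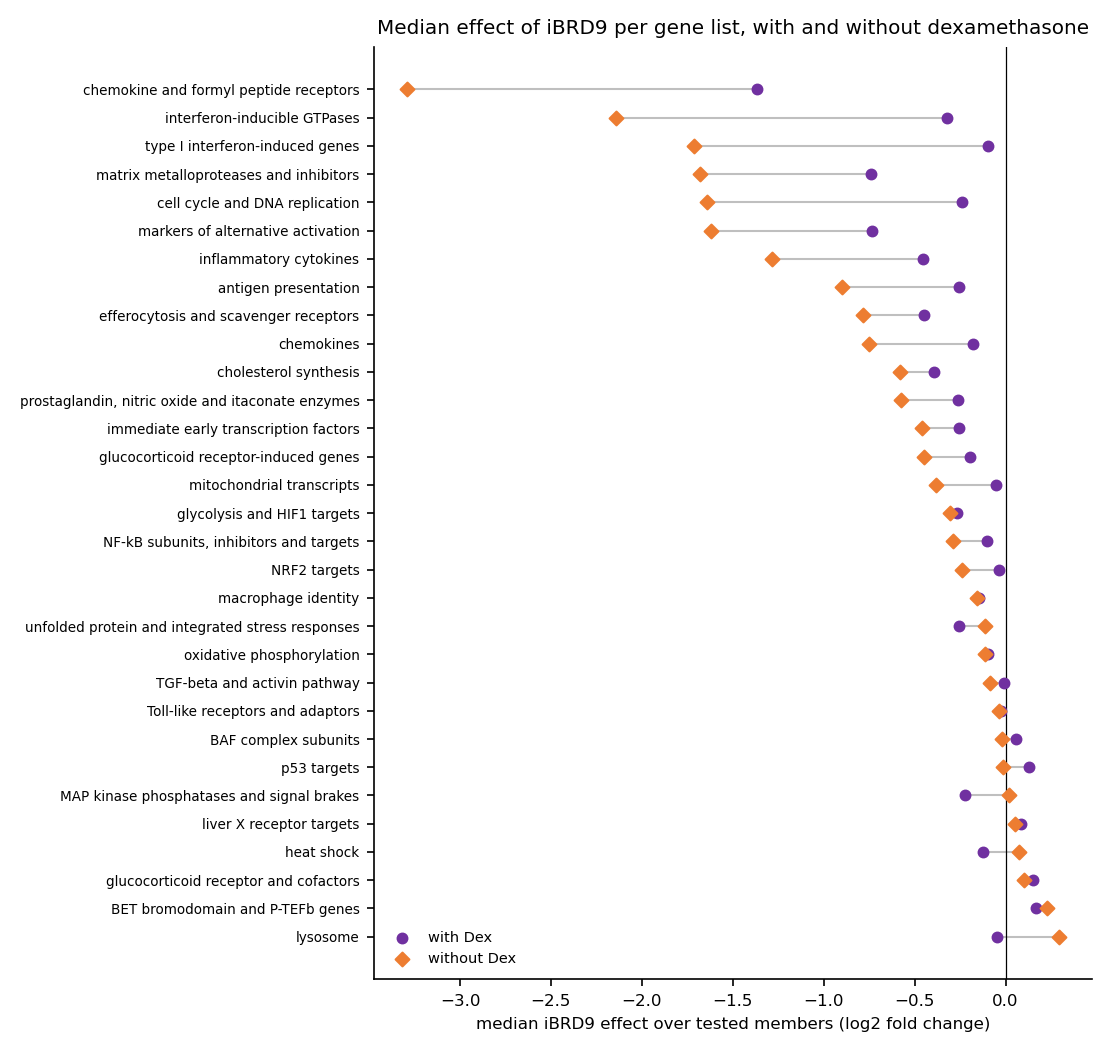
Median log2 effect of iBRD9 over the tested members of each gene list, with Dex (purple circles) and without Dex (orange diamonds), for lists with at least 10 tested members, ordered by the median without Dex. The circles lie nearer to 0 than the diamonds for the interferon, cell cycle, cytokine and lysosome lists. For the unfolded protein response, MAP kinase phosphatase, heat shock, p53, BAF, liver X receptor and glucocorticoid receptor cofactor lists the circles lie farther from 0.

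Lists of metabolism and stress responses are given next. NRF2 targets, which protect against oxidants, had 12 of 21 higher and 2 lower (Ftl1 and Sqstm1), with 7 and 2 when library totals were used or when replicate 1 of Dex + iBRD9 + LPS was left out. Slc7a11, the cystine importer gene, had 1087, 1124 and 1171 CPM with Dex + iBRD9 + LPS, 927, 1329 and 1355 CPM with Dex + LPS, 247, 210.2 and 211 CPM with iBRD9 + LPS, and 904, 882 and 925 CPM with LPS alone. The combination overlapped Dex + LPS and lay above LPS alone, and iBRD9 + LPS was far below, for an interaction of 1.92 (SE 0.14, adjusted p = 5.2e-10). Nqo1, a quinone reductase gene, averaged 5.33 CPM with Dex + iBRD9 + LPS, 7.51 CPM with Dex + LPS, 2.23 CPM with iBRD9 + LPS and 12.2 CPM with LPS alone, with an interaction of 1.97 (SE 0.16, adjusted p = 3.1e-09). Ftl1, a ferritin gene, had the opposite sign, with -0.54 (SE 0.084, adjusted p = 2.6e-05).

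Pfkfb3, which sets the rate of glycolysis, had 415, 419.5 and 412 CPM with Dex + iBRD9 + LPS, 294, 397 and 362 CPM with Dex + LPS, 26.8, 29.2 and 25.3 CPM with iBRD9 + LPS, and 81.3, 72.3 and 64.5 CPM with LPS alone. Both Dex groups were far above the others, and the combination was above Dex + LPS in every library. Its interaction was 1.67 (SE 0.13, adjusted p = 1.8e-09), with iBRD9 effects of 0.24 with Dex (adjusted p = 0.04, and 0.14 without replicate 1 of Dex + LPS) and -1.43 without Dex. In the glycolysis and HIF1 list as a whole, 4 of 24 were higher (Pfkfb3, Hk2, Pfkp and Slc2a1) and 4 lower (Ndrg1, Bnip3, Pfkl and Hk1), near the share of all genes. Of 29 oxidative phosphorylation genes 1 was called, and 5 were without replicate 1 of Dex + LPS. Mitochondrial transcripts had 7 of 12 higher, with 3 to 8 over the alternatives. mt-Nd1, a subunit gene of complex I, averaged 963 CPM with Dex + iBRD9 + LPS, 998 CPM with Dex + LPS, 1278 CPM with iBRD9 + LPS and 1677 CPM with LPS alone, with an interaction of 0.34 (SE 0.064, adjusted p = 2.6e-04).

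Cholesterol synthesis genes had 5 of 24 higher and 3 lower (Dhcr7, Sqle and Insig1). Their called share of 33.3% was near the 33.2% of all genes tested. Sqle was not called with any 1 of 6 of the 12 libraries left out (adjusted p of 0.050 to 0.099), and 1 gene was lower without replicate 2 of iBRD9 + LPS or replicate 3 of LPS alone. Of liver X receptor targets 2 of 14 were higher (Abca1 and Nr1h3) and 4 lower (Smpdl3a, Apoe, Nr1h2 and Mylip). Of these targets 42.9% were called, against 33.2% of all genes tested. Abca1, the cholesterol exporter gene, had 400.0, 413 and 394 CPM with Dex + iBRD9 + LPS, 231, 445 and 403 CPM with Dex + LPS, 72.0, 65.0 and 67.1 CPM with iBRD9 + LPS, and 174, 165 and 175 CPM with LPS alone. The libraries of the combination overlapped those of Dex + LPS, of which replicate 1 was far below the other 2. The iBRD9 effect with Dex was 0.16 (adjusted p = 0.46), and -0.078 (adjusted p = 0.57) without that library. The interaction was 1.5 (SE 0.23, adjusted p = 2.1e-05), and 1.25 (adjusted p = 7.8e-09) without that library. Apoe, the gene of a lipid carrier, had a lower interaction of -0.51 (SE 0.099, adjusted p = 3.2e-04). In the unfolded protein and integrated stress list 4 of 26 were higher and 7 lower, with 2 higher with any 1 of 6 of the 12 libraries left out. Called shares were 42.3% in this list and 40% among heat shock genes, against 33.2% of all genes tested. Pdia4, an enzyme of protein folding in the endoplasmic reticulum, averaged 96.4 CPM with Dex + iBRD9 + LPS, 89.0 CPM with Dex + LPS, 65.5 CPM with iBRD9 + LPS and 38.7 CPM with LPS alone, with an interaction of -0.65 (SE 0.089, adjusted p = 4.9e-06). Heat shock genes had 1 of 15 higher (Hspa4l) and 5 lower (Hspa1a, Dnajb1, Hsp90aa1, Bag3 and Hspa8). Without replicate 1 of Dex + LPS 3 were higher and 4 lower, Bag3 not being called and Hspa4l at 0.35 in place of 0.54, and without replicate 1 of iBRD9 + LPS 2 were higher. Dnajb1, a cochaperone gene, averaged 39.2 CPM with Dex + iBRD9 + LPS, 37.2 CPM with Dex + LPS, 45.8 CPM with iBRD9 + LPS and 28.9 CPM with LPS alone, with an interaction of -0.59 (SE 0.099, adjusted p = 6.5e-05). Of 21 p53 targets 8 were higher and 2 lower (Gdf15 and Sesn1), with 1 lower with any 1 of 7 of the 12 libraries left out. Cdkn1a, the gene of the cell cycle inhibitor p21, averaged 2989.7 CPM with Dex + iBRD9 + LPS, 3274 CPM with Dex + LPS, 3398 CPM with iBRD9 + LPS and 5459.6 CPM with LPS alone, with an interaction of 0.55 (SE 0.065, adjusted p = 6.3e-07). Gdf15, a stress cytokine gene on that list, had 125, 109 and 115 CPM with Dex + iBRD9 + LPS, 115, 87.2 and 81.2 CPM with Dex + LPS, 325, 280.5 and 307 CPM with iBRD9 + LPS, and 107, 109.5 and 103 CPM with LPS alone, and a lower interaction of -1.21 (SE 0.16, adjusted p = 4.5e-06).

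Opposite effects of iBRD9 with and without Dex, both called, were seen for 182 of the 12662 genes, and for 216 without replicate 1 of Dex + LPS. Of these, 81 had a higher and 101 a lower interaction. Besides Ifit2, Pml, Trim30d, Nr4a3, Cenpe and Pfkfb3, the rule named Lifr and Rnase4. Lifr, the receptor gene of leukaemia inhibitory factor, had 32.6, 35.2 and 34.5 CPM with Dex + iBRD9 + LPS, 40.8, 43.5 and 39.3 CPM with Dex + LPS, 4.92, 3.56 and 4.02 CPM with iBRD9 + LPS, and 1.32, 1.66 and 1.02 CPM with LPS alone. The combination was below Dex + LPS in every library, and iBRD9 + LPS above LPS alone, with iBRD9 effects of -0.27 (SE 0.083, adjusted p = 0.013) with Dex and 1.62 (SE 0.16, adjusted p = 9.5e-09) without Dex. The interaction was -1.89 (SE 0.18, adjusted p = 2.6e-08). Rnase4, a secreted ribonuclease gene, had 73.2, 78.1 and 69.2 CPM with Dex + iBRD9 + LPS, 102, 86.9 and 81.6 CPM with Dex + LPS, 23.8, 23.2 and 26.3 CPM with iBRD9 + LPS, and 9.96, 10.1 and 10.1 CPM with LPS alone. Its iBRD9 effects were -0.29 with Dex and 1.28 without Dex, and the interaction was -1.57 (SE 0.12, adjusted p = 8.5e-10). It shares exons with Ang, so reads may be shared.

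The same interaction was measured for the degrader dBRD9, in libraries of the same experiment. The 2 interactions share the Dex + LPS and LPS libraries, and the doses differ (3 or 10 µM against 250 nM), so the values are given side by side, and the difference between them was tested directly in 1 fit. The Dex by dBRD9 interaction was called for 429 genes (3.39%), against 4210 for iBRD9, with 1.82% higher and 1.57% lower. The difference between the 2 interactions was called for 3769 genes (29.8%), of which 1959 were higher and 1810 lower for iBRD9, and the higher share was 41.4% in place of 52% when library totals were used. Replicate 1 of Dex + dBRD9 + LPS also had a length trend (Spearman correlation of -0.54). Without both libraries with such a trend the dBRD9 interaction was called for 947 genes and the difference for 4764.

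For the type I interferon list the median interaction was 1.63 with iBRD9 and 0.34 with dBRD9. 17 of the 64 genes were called higher with dBRD9, and the difference was called higher for 61 (15.5% of all genes tested). Without both length-trend libraries, 47 were called higher with dBRD9, with a median of 0.46, and 63 for the difference. For cell cycle genes the medians were 1.20 with iBRD9 and 0.24 with dBRD9, and the difference was called higher for 32 of 40. For lysosomal genes they were -0.32 with iBRD9 and -0.11 with dBRD9, with 15 of 29 differences called lower (14.3% of all genes tested). NRF2 targets had medians of 0.24 with iBRD9 and 0.28 with dBRD9, and 9 of 21 were called higher with dBRD9, or 13 without both length-trend libraries.

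Tgfbi had 173, 173 and 177 CPM with Dex + dBRD9 + LPS and 158, 125 and 114 CPM with dBRD9 + LPS, for an interaction of -0.18 with dBRD9 and a difference of 4.61 (SE 0.16, adjusted p = 6.4e-15). Ptx3, the gene of the soluble pattern receptor pentraxin 3, had an interaction of 3.30 with iBRD9 and -0.99 with dBRD9, a difference of 4.30 (SE 0.22, adjusted p = 3.6e-12). F10, the gene of coagulation factor X, had 3.07 with iBRD9 and -1.02 with dBRD9. Mx1 had 36.8, 51.9 and 56.1 CPM with Dex + dBRD9 + LPS and 358, 329.9 and 297 CPM with dBRD9 + LPS, and its interaction was 3.22 with iBRD9 and 0.42 with dBRD9. Tlr8 was called with both compounds, at 2.90 with iBRD9 and 1.42 (SE 0.22, adjusted p = 6.2e-04) with dBRD9.

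On the lower side, Snx30 had -1.80 with iBRD9 and 0.45 with dBRD9, the lowest difference of the named genes at -2.26 (SE 0.16, adjusted p = 5.6e-10). Kctd12 had -2.01 with iBRD9 and -0.044 with dBRD9, and Ccl2 -1.12 with iBRD9 and -0.13 with dBRD9. Il12b is an example with no called difference: its interaction was -0.77 with iBRD9 and -0.64 with dBRD9, and the difference was -0.12 (SE 0.10, adjusted p = 0.41). For Nos2 the difference was 0.030 (SE 0.13, adjusted p = 0.9), which was not called either.

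**Figure D5:**
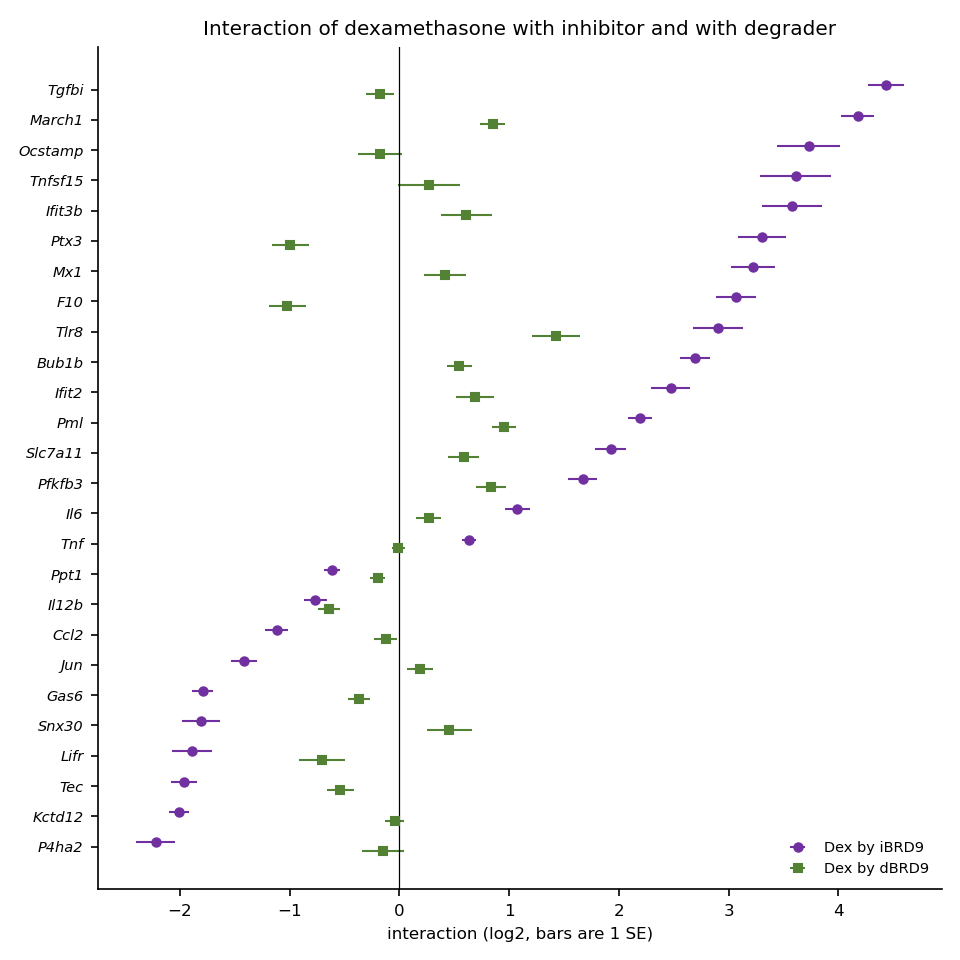
Interaction with Dex on the log2 scale for 26 genes, with iBRD9 (purple circles) and with dBRD9 (green squares), and bars of 1 SE, ordered by the value with iBRD9. From Tgfbi at the top to P4ha2 at the bottom the circles span 4.43 to -2.22, and the squares lie nearer to 0, with Tlr8 highest at 1.42.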

How the data were processed

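Raw counts per gene, as the authors deposited them, were available for 31 RNA-seq libraries, of which 21 were used. Per the submitters' processing notes, mm10, fastp, STAR and DESeq2 were part of the processing, with no versions or roles given, and the strand setting is not given in the sources used here. Of 35275 identifiers, 34490 had a symbol in GENCODE M21 (mm10). The 21 libraries of the first experiment (7 groups of 3, 19.3 to 29.9 M counts for those of the interaction) were fitted together with edgeR 4.0.16 (R 4.3.3) by its quasi-likelihood test, with 1 coefficient per group. TMM scaling was used, and genes were kept by filterByExpr (minimum count 10, total 15), which left 12662. The 10 libraries of the second experiment were not used here. CPM are counts per M of TMM-scaled totals, and standard errors are the log2 value divided by the root of F. Adjusted p-values (Benjamini-Hochberg over all genes tested) come from edgeR, and the threshold was 0.05. The fit was tested on simulated data.

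Named genes were 16 fixed genes, the 12 largest interactions per direction and the 8 largest with opposite iBRD9 effects (called, at least 10 CPM in the highest of the 4 groups and 30 counts in each group), and up to 4 per gene list. The members and lists were chosen with earlier results of these data known, and 160 genes resulted. The alternatives were other scalings, no filter, DESeq2 1.42.0, limma 3.58.1 (voom), a replicate block, a correction for exon length, fits of the compared groups alone, and leaving out libraries. Exons of 16 named genes overlap those of another tested gene, Cdc20, Dusp1 and Brd2 among them, so such reads cannot be told apart. Gbp5, Gbp6, Gbp10, mt-Rnr1 and mt-Rnr2 were not analysed here, and a few genes that the rule names are not reported here. Promoter windows came from RefSeq (GRCm38.p6), and 7655 tested genes matched a single window by symbol.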

Additional observations from a re-analysis of the deposited data

Results flagged for a closer look

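A difference between settings under the same treatment was seen at the level of all genes. The effect of iBRD9 differed between cells with Dex and cells without Dex for 4210 genes, by the interaction term of edgeR's quasi-likelihood fit. The interaction with Dex differed between iBRD9 and dBRD9 for 3769 genes by a contrast in the same fit. Their causes were not tested.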

How the results depend on the processing

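The interaction of Dex and iBRD9 was called for 3585 to 5113 genes over the alternatives, and no gene called in the main analysis was called with the other sign in any of them. Leaving out 1 library of the 4 groups at a time gave 3715 to 4822 genes. Over the 4 groups of the interaction, 6 of 18 pairs of same-numbered libraries had a correlation over 0.1 (median 0.02), and a fit with a replicate block called 4342 genes. All 3 pairs of Dex + iBRD9 + LPS with Dex + LPS were over it (0.14 to 0.30), but differently numbered pairs of these groups reached 0.14. The highest of all pairs was 0.33, between replicate 1 of Dex + iBRD9 + LPS and replicate 2 of iBRD9 + LPS. Replicate 1 of Dex + iBRD9 + LPS and of Dex + LPS both had a negative length trend (-0.27 and -0.69). Whether the numbers pair the libraries was not tested, and the labels do not say so. For the effect of iBRD9 with Dex the block gave 4528 genes. The effect of iBRD9 with Dex was called for 2283 genes in a fit of those 2 groups alone, and for 2171 with the replicate block in that fit, added after the data were seen, against 4390, and the dBRD9 interaction for 947 genes without both length-trend libraries, against 429, likewise added. Of 156 named genes called, 151 were called under every alternative, and Inhba, Bcl7b, Sqle, Lss and mt-Nd5 were not. Uncalled genes changed sign: Il1b was at -0.0030 with library totals, Ptgs2 at -0.0044 and Nr3c1 at -0.12 without both length-trend libraries. Leaving out 1 library at a time gave -0.0050 to 0.25 for Ptgs2, -0.23 to 0.58 for Il10 and -0.12 to 0.18 for Nr3c1. Total counts of called members moved by over 1.5 times for 5 lists, namely mitochondrial transcripts, glucocorticoid receptor cofactors, BAF subunits, NRF2 targets and oxidative phosphorylation. Depth limits genes under 1 CPM in a group, such as Ifnb1 and Cx3cr1, for which few reads set the fold. The causes of these shifts were not tested.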
